A study of Mus musculus with 82 samples.

Results

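The response of mouse aortic vascular smooth muscle cells (aVSMC) to U46619 was measured by RNA-sequencing after 24 h incubation, in 12 of the 82 libraries of the series. U46619 is a stable synthetic analog of thromboxane and activates the thromboxane prostanoid receptor TP, encoded by Tbxa2r. The 12 libraries were taken by their labels for treatment and incubation time, 6 control and 6 U46619 cultures, with 1 culture of each kind from each of the mice numbered 1 to 6. They are primary cultures from the aortas of C57BL/6 mice, of up to 7 passages, and no transgene or deletion is named for any of them. All groups had been grown with serum, insulin, EGF, transferrin, hydrocortisone and selenite and then kept for 24 h in medium free of these supplements, to which U46619 was added at 1 µM or nothing was added. Cultures incubated with EGF (10 µg/L) for 24 h, also 1 from each mouse, and cultures incubated with or without U46619 for 48 h are used for comparison. The cells were not sorted, so a difference between cultures covers every cell type present, and fewer cells of a type cannot be told apart from less RNA per cell.

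TP couples to the G proteins of the Gq and G12 families. Gq activates phospholipase C beta and raises cytosolic calcium, while G12 and G13 activate the small GTPase RhoA and its kinase ROCK, which drive contraction and actin polymerization. Actin polymerization releases the cofactors of serum response factor (SRF), and tension on the cytoskeleton admits YAP and TAZ to the nucleus, where they bind DNA through the TEAD factors. In arteries, TP mediates the vasoconstriction caused by thromboxane.

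The 12 libraries held 18925977 to 20354550 counts each, and 14653 of 55401 genes had enough counts to be tested. The 7075 genes that lie on chromosome 9, the sex chromosomes or the mitochondrial genome have a count of 0 throughout and were not tested, which leaves out Tagln, Pkm and Pgk1 among others. Levels are given as FPM, the counts-per-million scale after scaling of the library size by the trimmed mean of M values. A differentially expressed gene (DEG) had a false discovery rate (FDR) under 0.05 with edgeR and with DESeq2, with the mouse as a term of the model, and reached 5 FPM on average in control or U46619 cultures. Only the FDR of edgeR is printed, and the error of a log2-fold change is the standard error (SE) from the edgeR fit. It rests on n = 6 mice at 24 h and on 5 U46619 cultures at 48 h, with the spread estimated over all groups of that time. Smooth muscle markers were abundant in all 12 libraries, with Acta2 at 1149 to 14753 FPM. The 7 tested summed to 1796 to 7211 FPM in control and 5490 to 19170 FPM in U46619 cultures. Markers of adventitial fibroblasts were abundant too. The 12 tested summed to 2174 to 6641 FPM in control and 1519 to 2963 FPM in U46619 cultures. Endothelial markers were present as well, and their amount differed more between mice than between the cultures of a mouse. The summed level of the 8 endothelial markers tested was 18.6, 9.39, 68.4, 775, 446 and 2175 FPM in the control cultures of mice 1 to 6 and 9.69, 6.44, 64.6, 592, 323 and 1937 FPM in their U46619 cultures, lower with U46619 in 6 of 6 mice. Only Cldn5 of these markers was a DEG (−0.96 ± 0.27, edgeR FDR = 0.0082), and it was lower with U46619. The macrophage markers Ptprc, Adgre1, Itgam, C1qa, C1qb and Fcgr1 and the epithelial markers Epcam and Cdh1 had too few counts to be tested. The tested epithelial and mesothelial markers summed to 0.838 to 884 FPM in control and 2.03 to 715 FPM in U46619 cultures, highest in mouse 3. Those of Schwann cells and adipocytes summed to 9.61 to 2320 FPM and 11.2 to 1386 FPM, highest in mouse 6. The part of these cells in differences between mice was not tested.

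Incubation with U46619 for 24 h changed 4044 genes, of which 1984 rose and 2060 fell. These are 13.5% and 14.1% of the genes tested, and the counts in each group of genes are to be read against these shares. The changes were mostly modest. The median log2-fold change was 0.68 over the genes that rose, −0.75 over those that fell and −0.06 over all genes tested. More than a 2-fold change was measured for 465 genes that rose and 629 that fell, and more than a 4-fold change for 47 and 83 genes. Of the DEG, 3842 are protein-coding and 124 are processed pseudogenes. Reads that align to several places were counted at each of them, so a processed pseudogene and its parent gene share counts.

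The direction of regulation was shared by the mice more than its size. Of the DEG, 1634 were higher and 1647 were lower with U46619 in 6 of 6 mice, where 34.2% of all genes tested moved in 1 direction in every mouse. The levels of the 6 U46619 cultures lay entirely above those of the 6 control cultures for 275 DEG and entirely below them for 122, and 3.08% of all genes tested were without overlap in either direction. The cultures of mice 1 and 2 moved most. The median difference within a mouse, on the scale log2(FPM + 0.5), over the genes that rose was 0.98, 1.01, 0.52, 0.49, 0.56 and 0.32 in mice 1 to 6. Over the genes that fell it was −1.02, −1.13, −0.53, −0.55, −0.65 and −0.32. These medians describe genes that were called on the same mice. When DEG were instead called on 5 mice, 84.5% to 98.7% of them had the same direction in the mouse left out, against 68.4% to 80.5% of all genes, the lowest share being that of mouse 6. Without mouse 2, 2512 genes were called.

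**Figure D1:**
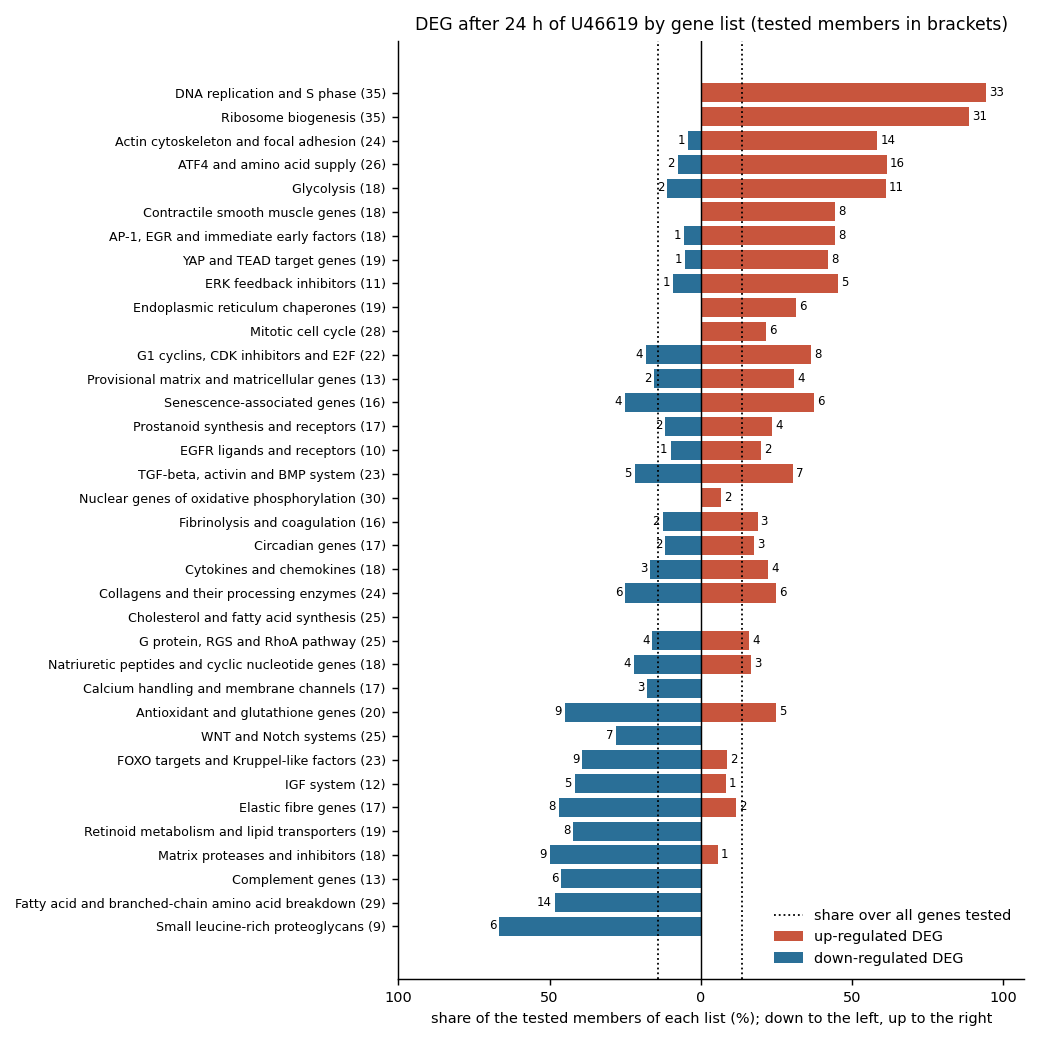
Share of the tested members of each pathway list that rose (to the right) or fell (to the left) after 24 h of U46619, in percent, with the number of genes at each bar and of members tested in brackets. The dotted lines mark 13.5% and 14.1%, the shares of all genes tested; DNA replication and ribosome biogenesis reach furthest to the right, and small leucine-rich proteoglycans furthest to the left.

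A total of 36 lists of genes by pathway or function were examined, and the plot of their shares of DEG shows on which side each of them lies. Where members of a list are named for the size of their change, they are those among its DEG. Where 0 members of a list rose or 0 fell by edgeR and DESeq2 together, at most 2 members had an unadjusted edgeR p under 0.05 in that direction and at most 2 were called by DESeq2 alone. The genes with the largest rise among those that moved in 1 direction in 6 of 6 mice included Ankrd1, a nuclear ankyrin repeat protein of stretched muscle, Nppb, the precursor of B-type natriuretic peptide, Vgf, a granin-like secreted protein, Crct1, H2.M1, Pilra and Ptgs2, the inducible cyclooxygenase. Vgf also had the smallest FDR of all DEG (4.08 ± 0.36, edgeR FDR = 4.22e-09). It measured 0.0599, 1.21 and 1.83 FPM in control and 5.05, 17.6 and 25.0 FPM in U46619 cultures, in the order lowest, median and highest that is used for all levels below. The groups did not overlap. The largest falls among such genes included those of Adh1, an alcohol dehydrogenase of retinol metabolism, Abca8a, a lipid transporter, Lrrc17, Sult1a1, a sulfotransferase, Palm3, Art4, Scara5, a ferritin scavenger receptor, and Mlana. Adh1 fell from 5.98, 23.1 and 132 FPM to 0.105, 1.44 and 9.39 FPM (−3.96 ± 0.65, edgeR FDR = 4.96e-05), with differences of −6.86, −4.45, −2.76, −2.90, −3.42 and −0.97 in mice 1 to 6. Its groups overlapped, since the U46619 cultures of mice 3 and 6 had more Adh1 than the control culture of mouse 5.

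In terms of transcript abundance, the largest rise in mean level was that of Acta2, smooth muscle actin (2602 to 10253 FPM). Thbs1, encoding the adhesive glycoprotein thrombospondin 1 (2038 to 6936 FPM), and Ccn2, a matricellular growth factor (1124 to 4784 FPM), were also among the largest rises. The largest falls were those of Fth1, the ferritin heavy chain (5259.7 to 2198 FPM), Col3a1, type III collagen (3762 to 1447 FPM), Gas6, a ligand of TAM receptors (2055 to 572 FPM), and Psap, a lysosomal saposin precursor (3060.0 to 1589.8 FPM). Fth1 has processed copies in the genome, and its value is uncertain for that reason. Mthfd2 (1.48 ± 0.15, edgeR FDR = 1.46e-07), a mitochondrial folate enzyme, Rab3ip (1.59 ± 0.18, edgeR FDR = 5.15e-07) and the Pgk1 retrocopy Pgk1.rs7 (1.66 ± 0.19, edgeR FDR = 5.15e-07) had the smallest FDR after Vgf among genes that rose, and Hexim1 (−0.84 ± 0.10, edgeR FDR = 8.41e-07), Pid1 (−1.94 ± 0.23, edgeR FDR = 9.73e-07), Abhd11os (−2.20 ± 0.27, edgeR FDR = 1.33e-06) and Ttc30b (−1.37 ± 0.17, edgeR FDR = 1.34e-06) among those that fell. Reads of Pgk1 itself can fall on Pgk1.rs7.

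The receptor that U46619 activates was itself expressed at a lower level after the incubation. Tbxa2r measured 49.5, 58.0 and 187.6 FPM in control and 17.5, 30.6 and 38.8 FPM in U46619 cultures, and the groups did not overlap (−1.31 ± 0.32, edgeR FDR = 0.00218). It was lower in 6 of 6 mice, with paired differences of −0.82, −2.26, −0.97, −1.60, −1.71 and −0.59. Among the 17 genes of prostanoid synthesis and prostanoid receptors that were tested, 4 rose and 2 fell. The falls were near the share of all genes tested. Ptgs2 rose most, with 0.299, 7.01 and 11.4 FPM in control and 9.05, 33.0 and 150.8 FPM in U46619 cultures (3.24 ± 0.71, edgeR FDR = 0.000758). Its groups overlapped, the U46619 culture of mouse 1 lying within the range of the control cultures. Pla2g4a, the cytosolic phospholipase that releases arachidonic acid, rose as well (1.05 ± 0.33, edgeR FDR = 0.0129), as did Ptges3 (0.70 ± 0.17, edgeR FDR = 0.00207), a cytosolic prostaglandin E synthase and cochaperone, and Ptgs1 (0.45 ± 0.14, edgeR FDR = 0.0144), the constitutive cyclooxygenase. Ptgir, the receptor for prostacyclin, which relaxes smooth muscle, fell (−1.56 ± 0.42, edgeR FDR = 0.00458) from 4.46, 10.3 and 26.0 FPM to 1.85, 3.54 and 6.96 FPM. Ptgis, the prostacyclin synthase and the most abundant gene of the list, was not a DEG (log2-fold change = 0.22 ± 0.21, higher in 3 of 6 mice), nor was Ptges2 (0.06 ± 0.17). Of the other receptors of the study, Egfr was not a DEG (log2-fold change = −0.24 ± 0.23, edgeR FDR = 0.445), and Agtr1a, the receptor for AngII, had a mean below 5 FPM in both groups and was not a DEG for that reason (−1.78 ± 0.54, edgeR FDR = 0.0103), with 0, 2.42 and 19.7 FPM in control and 0, 0.682 and 6.79 FPM in U46619 cultures. Its control cultures lie close to that minimum on average, and it was called without mouse 3, 4, 5 or 6.

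**Figure D2:**
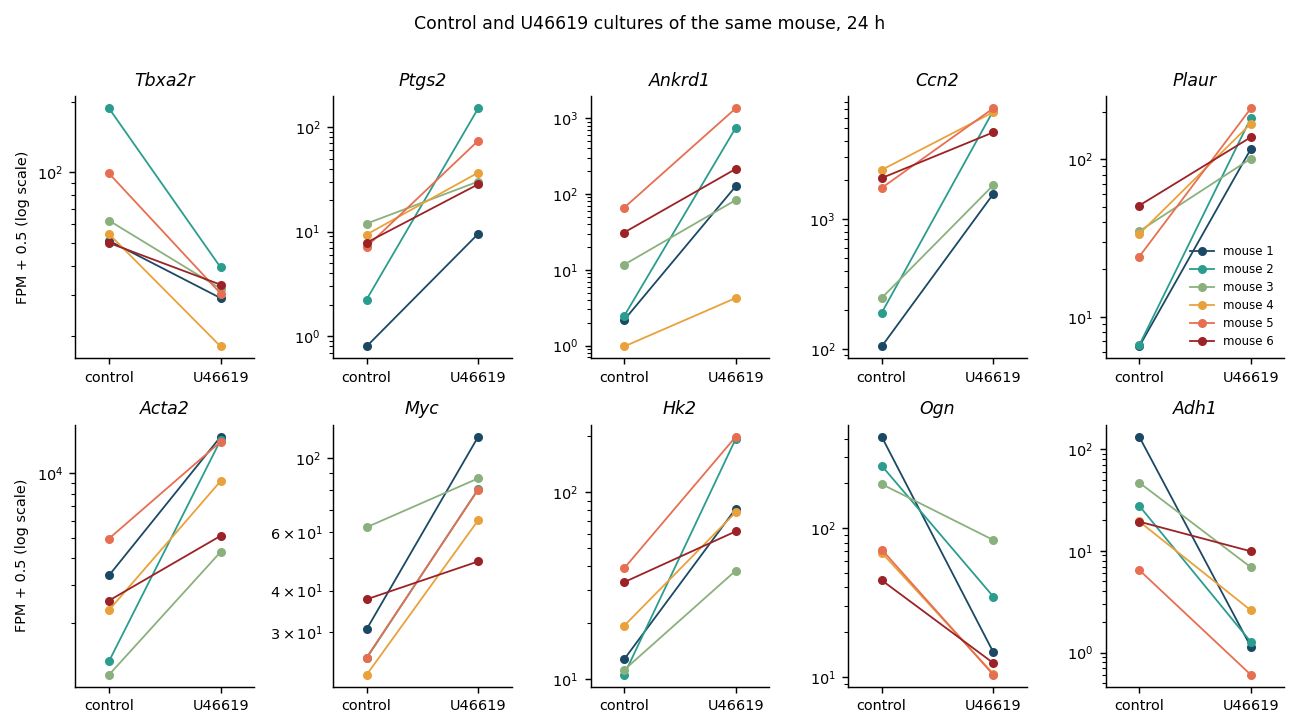
Levels of 10 genes in the control and the U46619 culture of each mouse after 24 h, as FPM + 0.5 on a log axis, with 1 line for each of the 6 mice. Tbxa2r, Ogn and Adh1 fall and the other genes rise in every mouse, and for Ccn2 and Ankrd1 the control cultures of different mice lie further apart than the control and the U46619 culture of some of the mice.

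Target genes of YAP and TEAD rose, with 8 of 19 tested members up and 1 down and a median log2-fold change of 0.38. Ankrd1 showed the largest rise of all genes that moved in 1 direction in every mouse. It measured 0.475, 6.57 and 65.4 FPM in control and 3.75, 170.2 and 1351 FPM in U46619 cultures (4.50 ± 0.74, edgeR FDR = 4.83e-05). The paired differences were 5.86, 8.25, 2.83, 2.12, 4.36 and 2.79. Its levels overlapped because both cultures of mouse 4 had little Ankrd1, and the other 5 U46619 cultures lay above every control culture. Ccn2 measured 104, 993 and 2395 FPM in control and 1566, 5662 and 7136 FPM in U46619 cultures (2.74 ± 0.49, edgeR FDR = 0.000101), and Ccn1, another matricellular protein of the same family, 233, 556 and 1175 FPM in control and 777, 1569.9 and 1837 FPM in U46619 cultures (1.48 ± 0.36, edgeR FDR = 0.00193). Dock5 (1.21 ± 0.21, edgeR FDR = 6.96e-05), an activator of Rac, was a DEG too. The member that fell was Igfbp3 (−1.56 ± 0.37, edgeR FDR = 0.00151), a binding protein of insulin-like growth factors, which was lower in 6 of 6 mice. F3, tissue factor (0.29 ± 0.35), and Crim1 (0.38 ± 0.28) were the most abundant members that were not DEG.

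The start regions of Ankrd1, of the contractile gene Acta2 and of Nppb are printed because they hold the short letters that TEAD factors recognize, CATTCC on either strand. The sequences are those of RefSeq on GRCm38.p6, from 250 bases before to 50 bases after the start, 5′ to 3′ on the strand of the gene, and capitals mark the match. Such a region was found in the table of promoters for 9760 of the genes tested. Shares are of genes, and a gene with several starts counts once, with a match in any of its regions. CATTCC occurred at 6 of 12 such genes of the list (50%) and at 15% of those among all genes tested. It was not particular to this list, since 7 of 15 contractile genes with a region (46.7%) held it too. It was no more frequent among all genes that rose (14%) than among those that fell (16%). A match is a description of the letters and not a measurement of binding. Ankrd1 (chr19:36119795-36120094, minus strand) has 2 matches, the first base of which lies 210 and 123 bases before the start. Acta2 (chr19:34255324-34255623, minus strand) and Nppb (chr4:147985650-147985949, plus strand) have 1 match each, 146 and 105 bases before the start.
Ankrd1: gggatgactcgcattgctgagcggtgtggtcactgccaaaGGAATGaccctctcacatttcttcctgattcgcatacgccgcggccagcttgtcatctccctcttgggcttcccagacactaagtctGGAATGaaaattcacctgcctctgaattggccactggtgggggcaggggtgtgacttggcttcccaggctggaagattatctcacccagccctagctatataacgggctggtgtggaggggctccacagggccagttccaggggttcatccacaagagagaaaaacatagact
Acta2: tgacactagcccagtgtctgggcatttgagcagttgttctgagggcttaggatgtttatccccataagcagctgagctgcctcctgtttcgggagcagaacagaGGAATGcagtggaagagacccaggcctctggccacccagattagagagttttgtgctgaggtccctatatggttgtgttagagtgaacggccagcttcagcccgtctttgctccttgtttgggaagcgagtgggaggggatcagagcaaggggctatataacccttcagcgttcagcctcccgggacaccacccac
Nppb: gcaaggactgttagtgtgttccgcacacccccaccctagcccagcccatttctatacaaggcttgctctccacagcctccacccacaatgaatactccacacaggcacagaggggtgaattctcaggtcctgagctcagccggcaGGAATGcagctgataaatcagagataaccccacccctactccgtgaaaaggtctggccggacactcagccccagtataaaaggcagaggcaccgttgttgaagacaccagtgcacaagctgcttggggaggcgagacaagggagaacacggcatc

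Genes of the contractile apparatus rose in part. Of 18 tested members, 8 rose and 0 fell, with a median log2-fold change of 0.25, and 5 were called without mouse 2. Acta2 measured 1149, 2424 and 4949 FPM in control and 4293, 11569.8 and 14753 FPM in U46619 cultures (2.05 ± 0.39, edgeR FDR = 0.000202), and its groups overlapped. The enteric smooth muscle actin Actg2 rose more, with 2.38, 63.4 and 322 FPM in control and 25.5, 213 and 3337 FPM in U46619 cultures (2.68 ± 0.42, edgeR FDR = 2.8e-05). Tpm2, a tropomyosin (1.39 ± 0.27, edgeR FDR = 0.000282), Cald1, caldesmon (0.94 ± 0.21, edgeR FDR = 0.000745), and Myl9, the regulatory myosin light chain (0.87 ± 0.28, edgeR FDR = 0.0164), rose as well. Vcl, vinculin (0.17 ± 0.43), and Mylk, myosin light chain kinase (−0.47 ± 0.41), were not DEG, nor was Myh11, the smooth muscle myosin heavy chain that marks the differentiated cell (0.29 ± 0.47, higher in 2 of 6 mice). The CArG box, to which SRF binds, was found at 4 of 15 genes of the list with a start region (26.7%) and at 1.54% of all such genes tested.

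Actin and focal adhesion genes rose more uniformly, with 14 of 24 tested members up and 1 down (median 0.61). Itga5, the integrin subunit of the fibronectin receptor, measured 138, 229.9 and 390.3 FPM in control and 389.7, 930.4 and 2032 FPM in U46619 cultures (1.83 ± 0.35, edgeR FDR = 0.000201), and the groups overlapped. Tes (1.60 ± 0.33, edgeR FDR = 0.000428) and Nexn (1.37 ± 0.26, edgeR FDR = 0.000187), proteins of focal adhesions and actin filaments, and Actn1, alpha-actinin 1 (1.29 ± 0.21, edgeR FDR = 5.12e-05), were also among the members with the largest rise. Zyx, zyxin (0.25 ± 0.24), and Tln1, talin 1 (0.33 ± 0.19), were not DEG. The member that fell was Pxn, paxillin (−0.43 ± 0.10, edgeR FDR = 0.00167).

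Of the regulators of fibrinolysis and coagulation, 3 of 16 tested members rose and 2 fell, shares near those of all genes tested. Plaur, the urokinase receptor, measured 5.99, 28.3 and 50.4 FPM in control and 100.5, 152.8 and 210.1 FPM in U46619 cultures (2.95 ± 0.41, edgeR FDR = 9.5e-06). Its groups did not overlap, and the paired differences were 4.17, 4.79, 1.53, 2.33, 3.13 and 1.44 in mice 1 to 6. F2r, a thrombin receptor, rose (0.89 ± 0.20, edgeR FDR = 0.00107), and Serpine2 (−1.21 ± 0.29, edgeR FDR = 0.00182) and Serping1 (−1.80 ± 0.33, edgeR FDR = 0.000154), inhibitors of serine proteases, fell. Serpinf1 (−0.33 ± 0.18) and F3 were the most abundant members that were not DEG. The matricellular and provisional matrix genes gave 4 rises and 2 falls among 13, the falls being near the share of all genes tested. There were 2 rises without mouse 2 and 1 without mouse 5. Spp1, osteopontin (1.93 ± 0.69, edgeR FDR = 0.0288), Thbs1 (1.80 ± 0.21, edgeR FDR = 8.41e-07) and Tnc, tenascin C (1.60 ± 0.50, edgeR FDR = 0.0128), rose, while Fap (−2.10 ± 0.45, edgeR FDR = 0.000553), a fibroblast protease, and Thbs2 (−1.48 ± 0.36, edgeR FDR = 0.00198) fell. Fn1, fibronectin, with a mean of 5985 FPM in control and 5954 FPM in U46619 cultures, and Sparc, with 6065 and 6141 FPM, did not pass the test.

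Immediate early factors were raised in part at 24 h, with 8 of 18 tested members up and 1 down (median 0.75). Fosl1, a subunit of AP-1, measured 0.359, 3.04 and 4.20 FPM in control and 9.59, 12.8 and 25.7 FPM in U46619 cultures (2.65 ± 0.55, edgeR FDR = 0.000476). Myc, a driver of growth genes, measured 21.8, 27.4 and 61.4 FPM in control and 48.4, 80.0 and 115 FPM in U46619 cultures (1.33 ± 0.24, edgeR FDR = 0.000119), was higher in 6 of 6 mice and had groups that overlapped. Maff (1.34 ± 0.27, edgeR FDR = 0.000349) and Ier3 (1.26 ± 0.26, edgeR FDR = 0.000508) rose too, and Egr3 fell (−1.29 ± 0.46, edgeR FDR = 0.0302), a call kept in 2 of the 6 fits that left out a mouse. Fosl2 (−0.12 ± 0.18) and Jund (−0.05 ± 0.24) were the most abundant factors that were not DEG. Feedback inhibitors of the ERK cascade gave 5 rises and 1 fall among 11. Phlda1 (1.75 ± 0.33, edgeR FDR = 0.000213) and the nuclear ERK phosphatases Dusp5 (1.43 ± 0.28, edgeR FDR = 0.000254) and Dusp4 (1.14 ± 0.33, edgeR FDR = 0.00747) rose, as did Errfi1 (1.05 ± 0.29, edgeR FDR = 0.00616), an inhibitor of EGFR, and Spry1 fell (−1.11 ± 0.23, edgeR FDR = 0.000493). Of 10 tested ligands and receptors of the EGFR family, 2 rose and 1 fell, shares near those of all genes tested. Ereg, epiregulin, measured 2.52, 9.93 and 25.9 FPM in control and 9.43, 38.6 and 66.8 FPM in U46619 cultures (1.73 ± 0.29, edgeR FDR = 6.32e-05), and Hbegf, heparin-binding EGF, 5.09, 25.5 and 77.4 FPM in control and 22.1, 60.3 and 146 FPM in U46619 cultures (1.56 ± 0.34, edgeR FDR = 0.000777). Tgfa fell (−0.88 ± 0.28, edgeR FDR = 0.0157). Ereg and Hbegf were higher in 6 of 6 mice, and no receptor of the family was a DEG.

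In the list of G proteins, RGS proteins and the RhoA pathway, 4 of 25 tested members rose and 4 fell (median −0.04), shares near those of all genes tested, and 7 rose without mouse 3. Rgs5, a regulator of G protein signaling typical of arterial smooth muscle and pericytes, measured 0.180, 45.2 and 205 FPM in control and 0, 2.88 and 54.6 FPM in U46619 cultures (−2.39 ± 0.45, edgeR FDR = 0.000184), and Rgs2 fell as well (−1.50 ± 0.37, edgeR FDR = 0.00213). Rgs16 rose (1.76 ± 0.40, edgeR FDR = 0.00119) in 5 of 6 mice. Rnd1, an atypical small GTPase (1.48 ± 0.42, edgeR FDR = 0.00688), and Rock2, a RhoA kinase (0.90 ± 0.20, edgeR FDR = 0.00114), rose. Rhob (0.23 ± 0.14) and Gna11, a Gq family subunit (−0.06 ± 0.10), were not DEG. Of the calcium handling and channel genes, 0 of 17 rose and 3 fell, the falls being near the share of all genes tested. The 3 were Atp2b4, a plasma membrane calcium pump (−1.11 ± 0.31, edgeR FDR = 0.00573), Stim1, the calcium sensor of the endoplasmic reticulum (−0.76 ± 0.18, edgeR FDR = 0.00192), and Cacna1g, a T-type channel (−0.68 ± 0.26, edgeR FDR = 0.039). Of the fits that left out a mouse, only those without mouse 1 or mouse 3 kept the call of Cacna1g. Among natriuretic peptide and cyclic nucleotide genes, 3 of 18 rose and 4 fell, the rises being near the share of all genes tested. The rises were 0 by edgeR and DESeq2 together without mouse 2, and the falls 2 and 2 without mouse 5 or 6. Nppb was close to 0 in control, with 0, 0.0925 and 0.683 FPM in control and 0.116, 3.21 and 34.9 FPM in U46619 cultures (4.33 ± 0.88, edgeR FDR = 0.000393), so its fold change rests on few counts. Gucy1a1, a subunit of the nitric oxide receptor (−1.75 ± 0.43, edgeR FDR = 0.00217), Pde5a, which degrades cyclic GMP (−1.10 ± 0.30, edgeR FDR = 0.005), and the natriuretic peptide receptor gene Npr2 (−0.88 ± 0.17, edgeR FDR = 0.000214) fell. Npr3, the clearance receptor of natriuretic peptides (−0.21 ± 0.37), and Pde3a (0.09 ± 0.20) were not DEG.

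Genes of DNA replication rose, with 33 of 35 tested members up and 0 down (median 1.19). Mcm5, a subunit of the replicative helicase, measured 15.0, 29.6 and 47.9 FPM in control and 50.4, 114 and 306 FPM in U46619 cultures (1.79 ± 0.43, edgeR FDR = 0.00195). Orc1 (2.22 ± 0.43, edgeR FDR = 0.000238), Mcm10 (2.08 ± 0.50, edgeR FDR = 0.00195) and Cdc6 (1.77 ± 0.50, edgeR FDR = 0.00644), which prepare replication origins, and Rrm2 (1.86 ± 0.45, edgeR FDR = 0.00206), which makes deoxynucleotides, had the largest rises. The size of the rise differed between mice. The median over the list was 2.47, 2.24, 1.65, 0.23, 0.56 and 0.11 in mice 1 to 6. Mice 1 to 3 thus changed more than mice 4 to 6, and without mouse 2 a total of 16 of these genes were called, without mouse 6 34. The summed level of the list was 674, 749, 932, 1336, 895 and 1179 FPM in control and 4040.5, 3632, 2637, 1559, 1297 and 1325 FPM in U46619 cultures.

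Mitotic genes differed between mice in direction. Only 6 of 28 tested members rose and 0 fell, although the median log2-fold change was 1.24. The median over the list was 4.77, 3.41, 2.50, −0.44, −0.06 and −0.24 in mice 1 to 6, that is above 0 in mice 1 to 3 and below 0 in mice 4 to 6. In control, the summed level was 132, 174.4, 268, 571, 431 and 803 FPM, lower in mice 1 to 3 than in mice 4 to 6. With U46619 it was 2825, 2150.3, 1494, 417, 419 and 701 FPM, higher in mice 1 to 3. The called members with the largest changes were Bub1 (1.74 ± 0.64, edgeR FDR = 0.0353), a spindle checkpoint kinase, Cdc25c (1.59 ± 0.62, edgeR FDR = 0.0442), an activator of Cdk1, Tpx2 (1.39 ± 0.51, edgeR FDR = 0.0333), Foxm1 (1.34 ± 0.45, edgeR FDR = 0.0209) and Mad2l1 (1.25 ± 0.41, edgeR FDR = 0.0178). Leaving out mouse 1, 2 or 3 left 0, 0 and 0 members of the list called, while leaving out mouse 4, 5 or 6 gave 17, 7 and 20. The endothelial markers were also lower in mice 1 to 3 than in mice 4 to 6, and the part of other cells in this difference was not tested. Top2a, DNA topoisomerase II alpha (1.41 ± 0.60), was not a DEG.

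The start regions of the 2 lists differ in some letters and share others. The E2F site TTTCCCGC, searched on both strands, was found at 7 of 28 replication genes with a region (25%) and at 2.2% of all such genes tested. Its second form TTTGGCGC was found at 10.7% and 1.02%. Both forms were found at 0 of 21 mitotic genes with a region. The cell cycle homology element TTTGAA was found at 15 of 21 mitotic genes with a region (71.4%) and at 14.6% of all such genes tested. Among replication genes it was found at 14.3%. The letters CCAAT were frequent in both lists, at 60.7% of replication and 76.2% of mitotic genes, against 42.8% of all such genes tested. The region of Mcm5 (chr8:75109259-75109558, plus strand) is printed because this replication gene rose in 6 of 6 mice and its region holds 2 matches. They are the second form of the E2F site on the other strand and, nearer to the start, the cyclic AMP response element TGACGTCA. The latter lies 99 bases before the start and occurs at 3.49% of all genes tested with a region. Capitals mark both.
Mcm5: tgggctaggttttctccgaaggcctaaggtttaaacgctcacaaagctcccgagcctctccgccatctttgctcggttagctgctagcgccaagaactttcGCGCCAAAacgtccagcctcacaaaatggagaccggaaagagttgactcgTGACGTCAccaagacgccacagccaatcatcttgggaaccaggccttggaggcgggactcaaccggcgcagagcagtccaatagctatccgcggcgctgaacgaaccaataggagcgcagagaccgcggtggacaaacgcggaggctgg

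Regulators of the G1 phase changed in both directions, 8 of 22 up and 4 down, with 4, 4, 5 and 5 up without mouse 1, 2, 3 or 5. The E-type cyclins rose, Ccne2 with 0.821, 2.49 and 8.39 FPM in control and 6.00, 11.6 and 27.4 FPM in U46619 cultures (1.93 ± 0.48, edgeR FDR = 0.00252) and Ccne1 with 4.73, 10.3 and 16.3 FPM in control and 15.9, 27.4 and 73.9 FPM in U46619 cultures (1.53 ± 0.32, edgeR FDR = 0.000465), as did the E2F family members E2f8 (1.63 ± 0.57, edgeR FDR = 0.0265) and E2f7 (1.60 ± 0.58, edgeR FDR = 0.0304). Cdkn2a, encoding inhibitors of cyclin-dependent kinases, fell (−1.17 ± 0.29, edgeR FDR = 0.00247) and was lower in 6 of 6 mice. Ccnd2 (−0.05 ± 0.11) and Cdkn1a, the inhibitor p21 (−0.13 ± 0.15), were the most abundant members that were not DEG. The senescence-associated list shares Plaur, Igfbp3 and Cdkn2a with others and gave 6 rises and 4 falls of 16 (2 falls without mouse 2), with Il6 (1.82 ± 0.43, edgeR FDR = 0.00154) up and Igfbp5 (−1.67 ± 0.50, edgeR FDR = 0.0105) down among the largest changes.

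**Figure D3:**
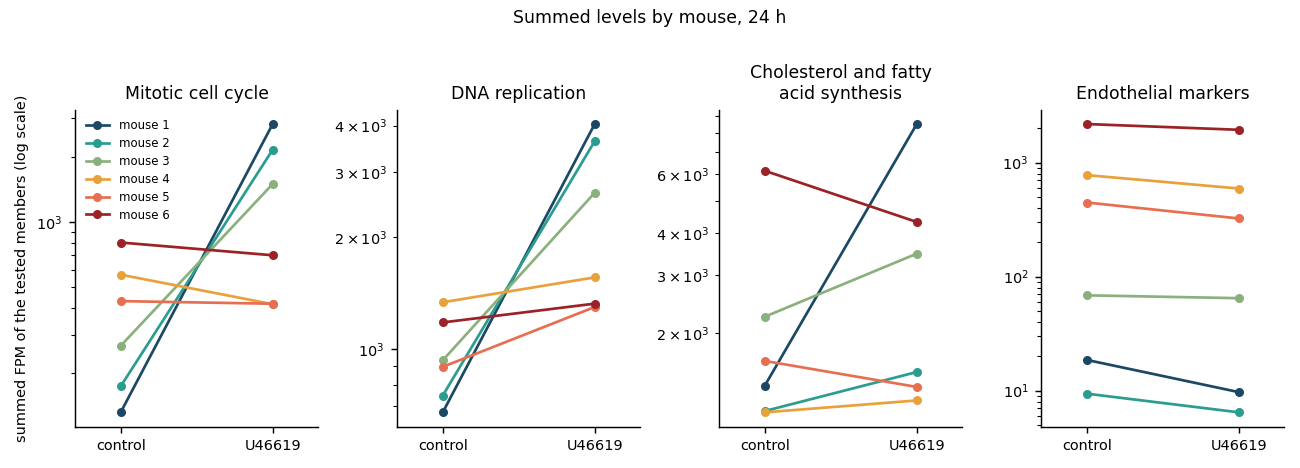
Summed FPM, on a log axis, of the tested members of 4 lists in the control and the U46619 culture of each of the 6 mice after 24 h. Mitotic genes rise in mice 1 to 3 and not in mice 4 to 6, replication genes rise in all, and genes of cholesterol and fatty acid synthesis go both ways. Endothelial markers are lower with U46619 in every mouse and differ more between mice than between the cultures of a mouse.

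Ribosome biogenesis had the largest share of members that moved in 1 direction in every mouse among the 36 lists. Of 35 tested members, 31 rose and 0 fell, 29 were higher in 6 of 6 mice, and the median was 0.82. Its median within a mouse was 1.04, 1.04, 0.49, 0.81, 0.89 and 0.26, above 0 in every mouse. Nop58, a core protein of box C/D small nucleolar particles, measured 26.1, 37.3 and 68.8 FPM in control and 74.2, 105 and 145 FPM in U46619 cultures (1.30 ± 0.25, edgeR FDR = 0.000235). Nhp2 (1.28 ± 0.25, edgeR FDR = 0.000267), Rrp12 (1.10 ± 0.17, edgeR FDR = 3.02e-05), Ddx21 (1.09 ± 0.19, edgeR FDR = 0.000107) and Ebna1bp2 (1.06 ± 0.15, edgeR FDR = 1.19e-05) rose alike. Ubtf (−0.21 ± 0.11) and Polr1c (−0.25 ± 0.15), both of the RNA polymerase I machinery, were not DEG.

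Glycolytic genes rose, with 11 of 18 tested members up and 2 down (median 0.86), and 1 fell without mouse 1, 2, 3 or 5. Hk2, the inducible hexokinase, measured 10.0, 15.5 and 38.6 FPM in control and 37.5, 79.3 and 198 FPM in U46619 cultures (2.37 ± 0.41, edgeR FDR = 8e-05). Slc16a3, a lactate exporter (2.02 ± 0.38, edgeR FDR = 0.000159), Slc2a1, the glucose transporter GLUT1 (1.82 ± 0.28, edgeR FDR = 2.15e-05), Eno1 (1.46 ± 0.26, edgeR FDR = 8.93e-05) and Ldha (1.45 ± 0.21, edgeR FDR = 1.66e-05) had the next largest changes. Gapdh, often used as a reference gene, rose (1.24 ± 0.23, edgeR FDR = 0.000126), with 85.9, 133 and 166.3 FPM in control and 168.9, 308 and 410.5 FPM in U46619 cultures. Gapdh, Eno1 and Ldha have processed copies, so that part of their reads may be counted elsewhere. Gpi1 (0.20 ± 0.16) and Hk1 (0.14 ± 0.13) were not DEG. Eef2, an elongation factor also used as a reference, fell (−0.52 ± 0.20, edgeR FDR = 0.0363), but this call was kept in only 2 of the 6 fits that left out a mouse.

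Genes of fatty acid and branched-chain amino acid breakdown fell, 14 of 29 tested members, and 0 rose (median −0.31). Without mouse 1, 9 were called lower. Acaa2, the last enzyme of mitochondrial beta-oxidation, measured 52.3, 186.3 and 335 FPM in control and 43.0, 54.3 and 165.8 FPM in U46619 cultures (−1.26 ± 0.24, edgeR FDR = 0.000165). Bckdha, a subunit of the branched-chain ketoacid dehydrogenase (−0.99 ± 0.23, edgeR FDR = 0.00151), Aldh6a1 (−0.93 ± 0.23, edgeR FDR = 0.00271), Hadh (−0.88 ± 0.16, edgeR FDR = 0.000116) and Cpt1a, which admits fatty acids to the mitochondrion (−0.81 ± 0.21, edgeR FDR = 0.0032), fell as well. Nuclear genes of oxidative phosphorylation changed little, with 2 of 30 tested members up, 0 down and a median of −0.01. They were Atp5b (0.46 ± 0.13, edgeR FDR = 0.00856) and Ndufs1 (0.43 ± 0.16, edgeR FDR = 0.0386), and the rises ranged from 0 without mouse 2 to 5 without mouse 3, where 2 fell. Atp5a1 (0.14 ± 0.08) and Cox6a1 (−0.01 ± 0.18) were not DEG.

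Genes of the ATF4 program, which supplies amino acids and charged tRNA, rose, with 16 of 26 tested members up and 2 down (median 0.51). The members that fell were not called without mouse 2 or without mouse 6. Slc7a11, the cystine transporter, measured 0.898, 2.48 and 13.6 FPM in control and 4.17, 11.99 and 25.6 FPM in U46619 cultures (1.77 ± 0.37, edgeR FDR = 0.000429). Mthfd2, already named for its FDR, measured 35.9, 57.8 and 77.4 FPM in control and 92.2, 163.3 and 325 FPM in U46619 cultures, and its groups did not overlap. Psat1, of serine synthesis (1.33 ± 0.23, edgeR FDR = 8e-05), Chac1 (1.25 ± 0.26, edgeR FDR = 0.000438) and Nars, asparaginyl-tRNA synthetase (1.23 ± 0.19, edgeR FDR = 2.2e-05), rose as well. Sars (0.23 ± 0.15) and Nupr1 (0.20 ± 0.23) were not DEG. Asns, asparagine synthetase (1.14 ± 0.16, edgeR FDR = 1.19e-05), is outside the rule for named genes and is shown for its start region, chr6:7693160-7693459 on the minus strand, which holds TGATGAAA, a match to TGATGNAA, the response element of CCAAT-enhancer binding protein and ATF dimers, 23 bases before the start. This element was found at 8 of 23 genes of the list with a region (34.8%) and at 2.83% of all such genes tested.
Asns: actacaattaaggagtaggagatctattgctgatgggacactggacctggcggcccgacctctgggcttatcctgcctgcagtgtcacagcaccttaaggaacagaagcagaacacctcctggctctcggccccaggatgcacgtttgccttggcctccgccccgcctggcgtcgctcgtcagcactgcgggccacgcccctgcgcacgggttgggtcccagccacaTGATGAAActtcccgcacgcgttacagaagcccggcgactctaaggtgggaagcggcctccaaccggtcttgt

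Of the chaperones and sensors of the endoplasmic reticulum, 6 of 19 rose and 0 fell (median 0.29), and 11 rose without mouse 3. Atf6, a sensor of unfolded protein, rose most (1.15 ± 0.21, edgeR FDR = 0.000118), followed by Hsp90b1 (0.64 ± 0.16, edgeR FDR = 0.00312), while P4hb (0.11 ± 0.12) and Calr (0.36 ± 0.16) were not DEG. Antioxidant genes changed in both directions. Hmox1, heme oxygenase 1, was among the 5 of 20 that rose (1.01 ± 0.28, edgeR FDR = 0.00637), as was Txnrd1, thioredoxin reductase 1 (1.06 ± 0.17, edgeR FDR = 4.56e-05). The 9 that fell were led by Gstt1 (−2.46 ± 0.42, edgeR FDR = 6.52e-05) and Gstm1 (−2.16 ± 0.37, edgeR FDR = 8e-05), glutathione transferases, Selenop, the plasma carrier of selenium (−2.10 ± 0.35, edgeR FDR = 4.96e-05), Gpx3 (−1.47 ± 0.36, edgeR FDR = 0.00196) and Mgst1 (−1.29 ± 0.24, edgeR FDR = 0.000163). Gstm1 measured 152.8, 421 and 564 FPM in control and 29.6, 90.3 and 188.4 FPM in U46619 cultures. Gstm1 belongs to a family of similar genes, so reads may be shared within it. Genes of cholesterol and fatty acid synthesis had 0 rises and 0 falls among 25 tested members. Their median within a mouse was 2.88, 0.31, 0.88, 0.09, −0.64 and −1.14, above 0 in mice 1 to 4 and below 0 in mice 5 and 6, and 6 were called higher without mouse 6. Scd1 (0.35 ± 0.41) and Scd2 (0.32 ± 0.34), which desaturate fatty acids, were the most abundant.

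**Figure D4:**
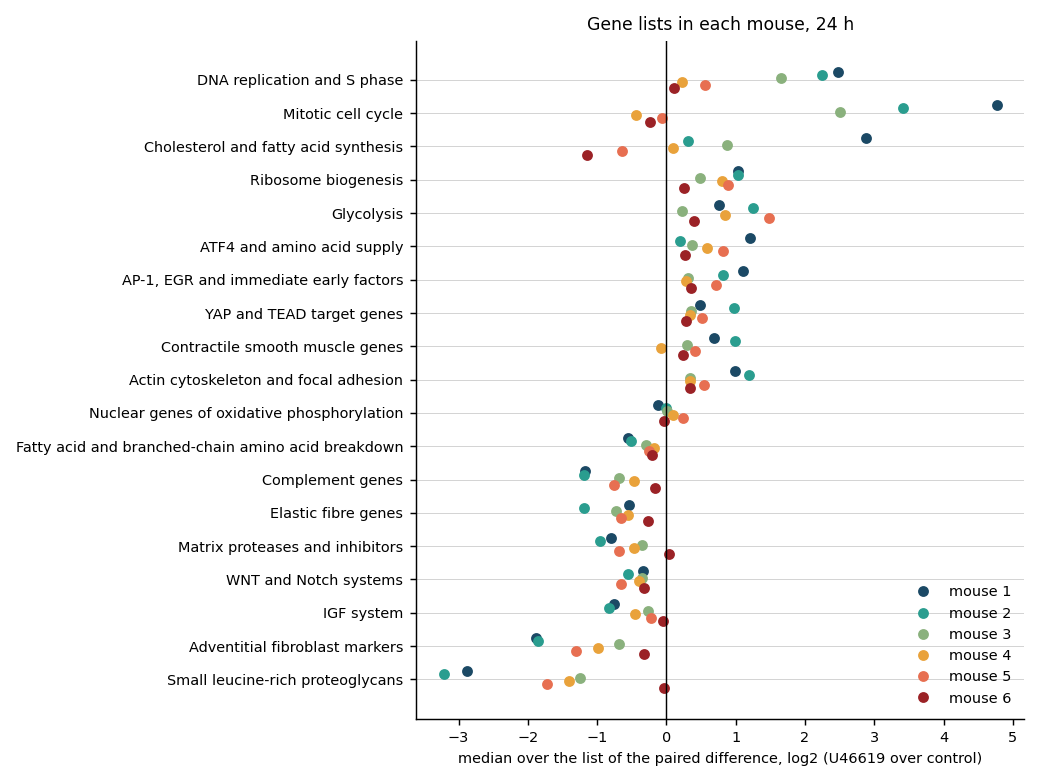
Median over the tested members of 19 lists of the difference between the U46619 and the control culture of a mouse, on the scale log2(FPM + 0.5), with 1 point for each of the 6 mice. Ribosome biogenesis and glycolysis lie above 0 and complement, elastic fibre genes and small leucine-rich proteoglycans below 0 in every mouse, while mitotic genes span −0.44 to 4.77.

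Many extracellular matrix genes fell. Of 9 tested proteoglycans, 6 fell and 0 rose (median −1.93). Ogn, osteoglycin, measured 44.2, 134 and 411 FPM in control and 9.84, 13.0 and 82.7 FPM in U46619 cultures (−2.56 ± 0.42, edgeR FDR = 5.12e-05), with paired differences of −4.81, −2.92, −1.25, −2.70, −2.80 and −1.85. Aspn, asporin (−2.46 ± 0.41, edgeR FDR = 5.59e-05), Ecm2 (−2.27 ± 0.38, edgeR FDR = 5.13e-05), Fmod, fibromodulin (−1.93 ± 0.41, edgeR FDR = 0.000627), and Prelp (−1.57 ± 0.47, edgeR FDR = 0.00918) fell as well. Podn (0.38 ± 0.22) and Lum, lumican (−1.24 ± 0.60), were not DEG. The median over the list was −2.88, −3.22, −1.25, −1.41, −1.73 and −0.04 in mice 1 to 6, close to 0 only in mouse 6.

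Of the elastic fibre genes, 8 of 17 fell and 2 rose (median −0.77). Fbln7, fibulin 7, measured 39.7, 358 and 1249 FPM in control and 12.6, 56.7 and 108 FPM in U46619 cultures (−2.93 ± 0.36, edgeR FDR = 1.35e-06). Mfap4 (−2.80 ± 0.43, edgeR FDR = 2.42e-05) and Mfap2 (−2.58 ± 0.67, edgeR FDR = 0.00332), proteins of microfibrils, Fbln1, fibulin 1 (−1.68 ± 0.28, edgeR FDR = 5.19e-05), and Efemp1 (−1.50 ± 0.38, edgeR FDR = 0.00278) also fell. Eln, elastin, is outside the rule for named genes and was not a DEG (log2-fold change = −1.40 ± 0.57, edgeR FDR = 0.0545), being lower in 5 of 6 mice. The list of collagens and their processing enzymes gave 6 rises and 6 falls of 24, and without mouse 1 the rises were 2. Col14a1 (−1.79 ± 0.36, edgeR FDR = 0.000333), Col6a1 (−1.47 ± 0.35, edgeR FDR = 0.00187), Col6a2 (−1.44 ± 0.33, edgeR FDR = 0.00103) and Col3a1 (−1.44 ± 0.29, edgeR FDR = 0.000348) fell. Col3a1 measured 144, 3196 and 9391 FPM in control and 52.2, 1156 and 3188 FPM in U46619 cultures. The basement membrane collagen gene Col4a2 rose (0.76 ± 0.19, edgeR FDR = 0.00219). Col1a1, the most abundant collagen gene, measured 1101, 5027 and 21645 FPM in control and 1141, 5004 and 23188 FPM in U46619 cultures and was not a DEG (−0.06 ± 0.22), nor was Serpinh1, the collagen chaperone (0.21 ± 0.15).

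Of the matrix proteases and their inhibitors, 9 of 18 fell and 1 rose. Mmp11 (−1.51 ± 0.31, edgeR FDR = 0.000405), Adamts5 (−1.45 ± 0.34, edgeR FDR = 0.00149), Mmp23 (−1.27 ± 0.28, edgeR FDR = 0.000798) and Mmp2 (−1.12 ± 0.29, edgeR FDR = 0.00347) had the largest falls, and the one that rose was Adamts12 (0.99 ± 0.36, edgeR FDR = 0.0321), with the call kept in 2 of 6 fits that left out a mouse. Markers of adventitial fibroblasts fell too, 10 of 12 tested members, and 0 rose. This list shares Lum, Col14a1, Gpx3 and Serpinf1 with lists above, so its falls are partly those already counted. Scara5 measured 1.90, 28.4 and 133 FPM in control and 0.450, 1.84 and 27.2 FPM in U46619 cultures (−3.29 ± 0.50, edgeR FDR = 2.2e-05), and Pdgfra, a receptor of platelet-derived growth factor, 141, 265 and 416 FPM in control and 100.4, 128 and 184.9 FPM in U46619 cultures (−0.98 ± 0.21, edgeR FDR = 0.000603). The summed level of the fibroblast markers was 6641, 2743, 2229, 2538, 2381 and 2174 FPM in the control and 2963, 1526, 1519, 2041, 2133 and 2147 FPM in the U46619 cultures of mice 1 to 6, lower with U46619 in 6 of 6 mice. The part of fibroblasts in the fall of matrix genes was not tested. Among markers of Schwann cells and adipocytes, S100b (−2.66 ± 0.50, edgeR FDR = 0.000184), Plin1 (−1.42 ± 0.52, edgeR FDR = 0.0335) and Adipoq (−1.34 ± 0.44, edgeR FDR = 0.0186) were lower, and Fabp4 (−0.26 ± 0.36) was not a DEG. Against these 3 falls, 1 was called without mouse 1, 2, 5 or 6, and the call of Adipoq was kept only without mouse 3. Of the macrophage markers tested, Csf1r rose (1.08 ± 0.23, edgeR FDR = 0.000537) and Lyz2 fell (−1.31 ± 0.23, edgeR FDR = 9.12e-05), and of the epithelial ones Krt19 rose (2.35 ± 0.56, edgeR FDR = 0.00179).

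Growth factor systems changed in both directions. In the TGF-beta, activin and BMP system, 7 of 23 rose and 5 fell, the falls being 2, 3, 3 and 2 without mouse 1, 2, 4 or 5. Inhba, the activin A subunit, measured 10.9, 33.2 and 80.0 FPM in control and 34.2, 92.0 and 284 FPM in U46619 cultures (1.70 ± 0.23, edgeR FDR = 6.23e-06). Inhba and Tgfb3 (1.58 ± 0.40, edgeR FDR = 0.00295) rose, and Id4 (−1.91 ± 0.31, edgeR FDR = 4.84e-05), an inhibitor of DNA binding, fell. Tgfbi fell too (−1.56 ± 0.52, edgeR FDR = 0.0194), with the call kept in 2 of 6 fits that left out a mouse. Id3 (−0.13 ± 0.24) and Bmp4 (−0.46 ± 0.30) were not DEG. Of 12 genes of the IGF system, 1 rose and 5 fell, with 3 and 2 falls without mouse 1 or 2. Igfbp4 measured 71.4, 327 and 497 FPM in control and 12.8, 63.5 and 198 FPM in U46619 cultures (−1.93 ± 0.46, edgeR FDR = 0.00172), and Igfbp2 was the one that rose (1.20 ± 0.29, edgeR FDR = 0.0018). Igfbp7 (0.06 ± 0.12) and Igf2r (−0.40 ± 0.20) were not DEG. In the WNT and Notch systems, 7 of 25 fell and 0 rose. They included the secreted WNT inhibitors Sfrp2 (−2.14 ± 0.52, edgeR FDR = 0.00195) and Sfrp1 (−1.19 ± 0.32, edgeR FDR = 0.00444), Dkk3 (−1.72 ± 0.26, edgeR FDR = 2.2e-05), and Notch3, the Notch receptor typical of arterial smooth muscle (−1.27 ± 0.32, edgeR FDR = 0.00295).

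Of 18 cytokine and chemokine genes tested, 4 rose and 3 fell, the falls being near the share of all genes tested. There was 1 fall without mouse 1 or without mouse 2. Il1rl1, the receptor of interleukin 33, measured 0.238, 0.554 and 2.16 FPM in control and 0.301, 5.59 and 20.0 FPM in U46619 cultures (2.96 ± 0.54, edgeR FDR = 0.000129). Il6, Lif (1.70 ± 0.35, edgeR FDR = 0.000407) and Csf1, the macrophage growth factor (1.37 ± 0.31, edgeR FDR = 0.00106), rose, and Csf1 was abundant, with 409.8, 749 and 1263 FPM in control and 942, 2144 and 3341 FPM in U46619 cultures. Cxcl12 (−0.48 ± 0.22) and Il6st (−0.43 ± 0.21) were not DEG. Complement genes fell, 6 of 13, and 0 rose (median −1.04). Their median within a mouse was −1.17, −1.18, −0.68, −0.47, −0.76 and −0.17. Serping1 (−1.80 ± 0.33, edgeR FDR = 0.000154), C4b (−1.72 ± 0.33, edgeR FDR = 0.00024), C1ra (−1.55 ± 0.27, edgeR FDR = 8.22e-05) and C1s1 (−1.47 ± 0.26, edgeR FDR = 9.16e-05) were among the largest falls. C1s1 measured 75.0, 715 and 1097 FPM in control and 54.6, 279 and 364 FPM in U46619 cultures.

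Targets of FOXO factors and Kruppel-like factors fell more often than they rose, 9 and 2 of 23. Txnip, which restrains glucose uptake, measured 264, 588 and 1849 FPM in control and 126, 212 and 391 FPM in U46619 cultures (−1.62 ± 0.30, edgeR FDR = 0.000151). Pik3ip1, an inhibitor of PI3 kinase (−1.76 ± 0.34, edgeR FDR = 0.000223), Klf15 (−1.50 ± 0.22, edgeR FDR = 1.66e-05) and Sesn1 (−1.43 ± 0.23, edgeR FDR = 4.15e-05) fell, and Sgk1, a kinase induced by serum (1.77 ± 0.28, edgeR FDR = 3.16e-05), rose. Klf6 (0.34 ± 0.17) and Cited2 (−0.12 ± 0.18) were not DEG. Of the circadian genes, 3 of 17 rose and 2 fell, shares near those of all genes tested. There was 1 fall without mouse 2, 3 or 6, and none was called without mouse 1. Of the circadian genes, Per3 (−0.97 ± 0.29, edgeR FDR = 0.00952) fell and Nfil3 (0.75 ± 0.25, edgeR FDR = 0.0186) rose. In the list of retinoid metabolism and lipid transporters, 8 of 19 fell and 0 rose, and without mouse 5 the falls were 4. Besides Adh1, Abca8a (−3.61 ± 0.62, edgeR FDR = 7.42e-05), Abca9 (−2.07 ± 0.62, edgeR FDR = 0.0101), Apoe, apolipoprotein E (−1.40 ± 0.25, edgeR FDR = 9.94e-05), and Abca8b (−1.38 ± 0.51, edgeR FDR = 0.0357) fell. Apoe measured 18.1, 204 and 1267 FPM in control and 4.99, 88.5 and 689.9 FPM in U46619 cultures.

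To show where the response differs from that to EGF, the U46619 cultures were set directly against the EGF cultures of the same 6 mice. U46619 and EGF act on different receptors, and the doses are those of the study. A total of 1645 genes were DEG between them, 899 higher and 746 lower with U46619 (6.14% and 5.09% of the genes tested). The count depends on single mice, with 602 without mouse 2, 880, 883 and 908 without mouse 1, 4 or 5 and 2472 without mouse 3. Contractile genes were higher with U46619 than with EGF in 8 of 18 tested members, actin and focal adhesion genes in 11 of 24, target genes of YAP and TEAD in 9 of 19, glycolytic genes in 11 of 18 and ribosome biogenesis genes in 21 of 35. Acta2 measured 352, 1513 and 8497 FPM with EGF, and the difference of U46619 from EGF was 2.42 ± 0.40 on the log2 scale (edgeR FDR = 0.000253). Ankrd1 measured 1.07, 14.7 and 198 FPM with EGF (3.41 ± 0.69, edgeR FDR = 0.0015).

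By contrast, no replication gene and no mitotic gene was a DEG between U46619 and EGF, 0 of 35 and 0 of 28. At an unadjusted edgeR p under 0.05, 1 and 0 of them were higher and 0 and 0 lower with U46619, and DESeq2 alone called 0 and 0. Mcm5 differed by 0.24 ± 0.41 between U46619 and EGF (edgeR FDR = 0.765) and by 1.55 ± 0.43 between EGF and control (edgeR FDR = 0.088), and it measured 47.8, 85.4 and 240.1 FPM with EGF. A difference that misses the threshold does not show that the stimuli act alike. Tbxa2r differed by −0.51 ± 0.32 between U46619 and EGF (edgeR FDR = 0.319). Of the proteoglycans, 4 of 9 were lower with U46619 than with EGF, and of the fibroblast markers 6 of 12. Ogn differed by −1.40 ± 0.41 (edgeR FDR = 0.0219).

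The same comparison after 48 h used other cultures with controls of their own. It covers 5 U46619 cultures and the control cultures of 2 batches, and the labels give 5 mouse numbers for the 10 culture sets while the methods state a mouse for each replicate. A culture set comprises the cultures of 1 replicate number in a batch. In 1 control library of the batch without U46619, the deviation from its group had a correlation of −0.29 with that of the rest of its set, where the other 48 h libraries had 0.52 to 0.96. With all libraries, 585 genes were DEG (2.28% up and 1.42% down of the 15796 genes tested at 48 h). Without that library 550 were called, and 3048 when only the batch that holds U46619 was fitted and its blocks were culture sets, not mouse numbers. With culture sets as blocks and both batches, 1546 were called. Leaving out the cultures numbered 1, 2, 3 or 4 gave 313, 246, 145 and 262.

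The direction of the 24 h response was largely the same at 48 h, with smaller changes. Of the 24 h DEG, 3484 had the same sign after 48 h (86.2%, against 71.3% of all genes tested at both times), and 87.7% did within the batch that holds U46619. With all libraries, the 440 genes that were DEG at both times are 10.9% of the 24 h DEG and 75.2% of the 48 h DEG. Of these, 439 had the same sign. The overlap depends on the 48 h fit. When only the batch that holds U46619 was fitted, 1715 of the 24 h DEG were DEG at 48 h with the same sign and 21 with the opposite sign. The median log2-fold change of the genes that rose after 24 h went from 0.68 to 0.23, and that of the genes that fell from −0.75 to −0.28. The 24 h genes were chosen by their 24 h values, so that a smaller value at 48 h is partly fixed by that choice.

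Among the groups of genes, contractile genes had 1 of 18 up and a median of −0.08. Acta2 measured 3469, 1497, 4079.6, 7499.9 and 1647 FPM in the 5 control and 3277, 1563, 4483, 5164 and 1099 FPM in the 5 U46619 cultures of the batch (−0.02 ± 0.40, edgeR FDR = 0.984). Replication genes had 0 of 35 up (median 0.33), with 4 at an unadjusted edgeR p under 0.05 and 0 by DESeq2 alone, and a median within a culture set of −0.34, −0.10, 0.49, 0.08 and 0.44. Ribosome biogenesis genes had 4 of 35 up (median 0.32). Glycolytic genes had 5 of 18 up (median 0.39). Genes of cholesterol and fatty acid synthesis, none of which was a DEG after 24 h, had 6 of 25 up. Their median within a culture set was 0.59, 0.55, 0.71, 0.01 and 0.75. Small leucine-rich proteoglycans had 3 of 9 down (median −1.95), with a median within a culture set of −1.02, −2.67, −2.27, −1.23 and −1.44, below 0 in each. Hk2 differed by 1.26 ± 0.28 (edgeR FDR = 0.00768), Tbxa2r by −0.79 ± 0.49 (edgeR FDR = 0.348), Ankrd1 by 0.89 ± 0.49 (edgeR FDR = 0.282) and Ogn by −4.10 ± 0.77 (edgeR FDR = 0.00209). Whether a change differs between the times was not tested.

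**Figure D5:**
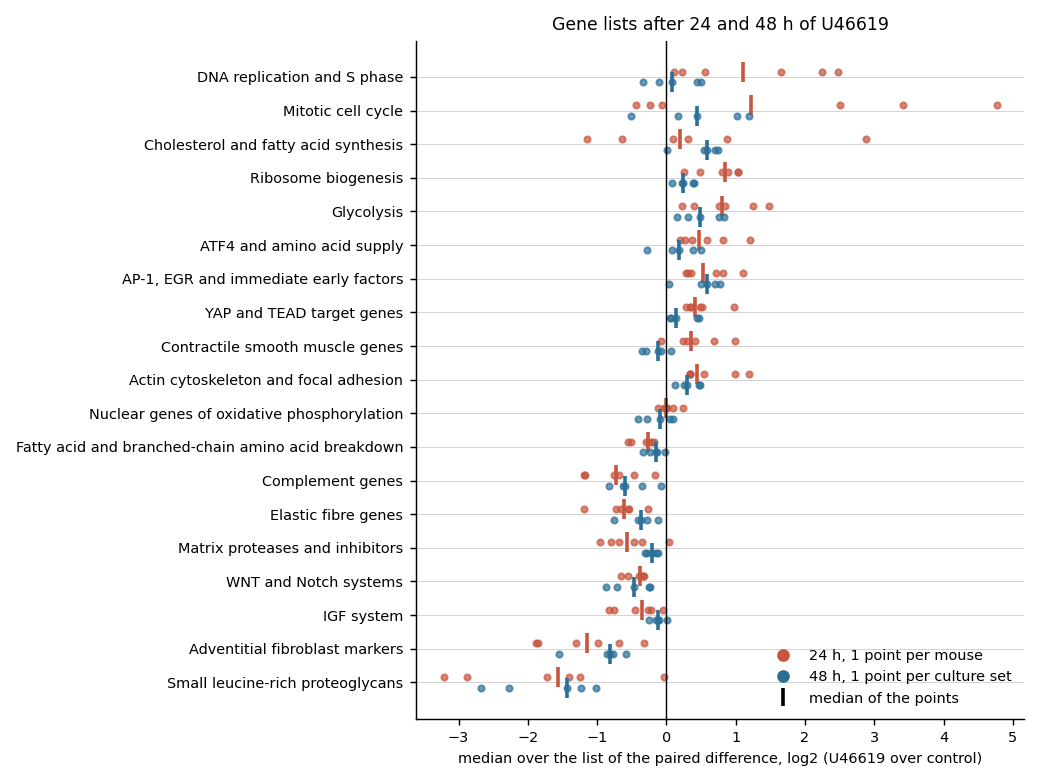
Median over the tested members of 19 lists of the paired difference between U46619 and control on the scale log2(FPM + 0.5), with 1 point for each of 6 mice after 24 h and for each of 5 culture sets after 48 h, and a bar at the median of the points. Proteoglycans, fibroblast markers and complement genes lie below 0 at both times, and replication genes lie nearer to 0 after 48 h.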

How the data were processed

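Sequencing libraries were prepared from poly(A) RNA of RIN above 7 and read as pairs of 150 bases on an Illumina NovaSeq system. With HISAT2 (2.1.0), the authors aligned them to mm10 and counted them per gene over exons with featureCounts, reads of several positions included. The values deposited by the authors are these whole-number counts per gene, not normalized. Samples were grouped by their labels for treatment, incubation time and mouse.

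Counts of the 42 libraries of the 24 h incubation were fitted together with mouse and treatment as terms, with the quasi-likelihood test of edgeR (4.0.16, legacy form, trimmed mean of M values) and the Wald test of DESeq2 (1.42.0) in R (4.3.3), and the 40 libraries of the 48 h incubation in the same way. Genes tested were those that passed filterByExpr at the time in question, 14653 at 24 h and 15796 at 48 h. A DEG had to pass it at both times. FDR values are Benjamini-Hochberg adjusted p-values over all genes tested at that time. DEG had an FDR under 0.05 with both tools, with 1 sign, and reached 5 FPM on average in a group compared. Differences within a mouse were taken on log2(FPM + 0.5). The procedure was tested on simulated counts. The figures were drawn with Matplotlib (3.10.9).

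The numbers 1 to 6 mark the animals from which the cultures came. The deviations of the control and the U46619 culture of an animal from their group means had correlations of 0.603 to 0.851 across genes. The library totals differ little. The p-values set a difference against the spread that remains after the terms for mouse and treatment, estimated over all groups of that time.

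Genes were named by a rule: Tbxa2r, Egfr, Agtr1a, Gapdh and Eef2; the 8 largest changes in each direction among DEG with 1 direction in 6 of 6 mice and a symbol other than a Gm or Rik number; the 4 smallest FDR in each direction; the 4 largest rises and falls in mean FPM; per list, up to 5 DEG with the largest change and the 2 most abundant members that were not DEG; and markers of cell types. Asns, Eln, Hmox1, Ptgs1, Pxn and Txnrd1 and the genes of the closing observations were named after their values were seen, and some genes that the rule names are not reported here. The members, the 36 lists of pathways and the 6 of markers were chosen with earlier results of these data known. Promoter sequences are those of RefSeq for GRCm38.p6. Alternatives covered the tool, the scaling, the filters, the FPM minimum, the groups in the fit, the block and each animal left out.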

Additional observations from a re-analysis of the deposited data

Results flagged for a closer look

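The median difference between the U46619 and the control culture of a mouse over the 19 target genes of YAP and TEAD was 0.97 in mouse 2, on the scale log2(FPM + 0.5), and 0.29 to 0.51 in the other 5 mice. Its gap to the next mouse made up 0.675 of the whole range, more than Dixon's critical value for 6 values. This was the only one of 77 groups of 6 values past that value, and chance alone gives about 1 in 20. The list was above 0 in 6 of 6 mice, and 7 of its members were called higher without mouse 2, against 8 with all mice.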

How the results depend on the processing

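The direction of the response was the same under each alternative run for 199 genes, with 0 reversals in 3330 values. Of these genes, 197 were called on the same mice, and most named genes that were not DEG are outside this count. The alternatives with 1 tool alone, no FPM minimum or the filter at the tested time only repeat the fold changes of the main fit. Their values could not reverse. The number of calls depends on the pairing by mouse. With no replicate block, 1037 genes were called between U46619 and control, 637 up and 400 down, so that 61.4% of the calls were rises against 49.1% with it, and 24 between U46619 and EGF and 109 after 48 h. Without it, 121 of the 199 genes lost their call. Leaving out each mouse in turn gave 2512 to 4635 calls against control and 602 to 2472 against EGF, and each culture number 145 to 538 after 48 h. Of the 197 named genes that were called, 150 were called in each of these fits, and most losses came without mouse 1 (29) or mouse 2 (33). After 48 h, DESeq2 alone called 966 genes, the fit with the culture set as the replicate block 1546 and the fit of the U46619 batch alone, also with that block, 3048. The cause was not tested. The other alternatives stayed within 1.5 times the count reported. They gave 3318 to 4869 calls against control, 1200 to 1981 against EGF and 550 to 715 after 48 h. The form of the edgeR test used by default in version 4 and the fit without the 48 h control library that stands apart were chosen after seeing the data. Genes of low counts limit the precision, and a fold change of a gene near 0 FPM in control rests on few reads.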

Other observations

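Some genes known to be induced by interferon belong to none of the lists and were named after their values were seen, so that they stand for themselves and not for a pathway. Ifit3 measured 38.4, 147.6 and 188.2 FPM in control and 3.08, 22.0 and 99.9 FPM in U46619 cultures (−2.31 ± 0.54, edgeR FDR = 0.00153) and was lower with U46619 in 6 of 6 mice. Ifit1 (−1.41 ± 0.46, edgeR FDR = 0.0167), Oas2 (−1.85 ± 0.47, edgeR FDR = 0.00317), a sensor of double-stranded RNA, the guanylate-binding protein gene Gbp6 (−2.32 ± 0.45, edgeR FDR = 0.000269), the immunoproteasome subunit gene Psmb9 (−2.06 ± 0.35, edgeR FDR = 6.29e-05) and the transcription factor gene Irf7 (−1.21 ± 0.39, edgeR FDR = 0.0149) fell as well, while Isg15 was not a DEG (−0.57 ± 0.34, edgeR FDR = 0.192).

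The largest fall among the genes looked at outside the lists was that of Inmt, a methyltransferase of indoles (−5.30 ± 0.78, edgeR FDR = 1.8e-05), with 0, 8.65 and 556 FPM in control and 0.0502, 0.306 and 4.47 FPM in U46619 cultures. It was lower in 5 of 6 mice. The flavin monooxygenase genes Fmo1 (−2.17 ± 0.57, edgeR FDR = 0.00405) and Fmo2 (−2.07 ± 0.48, edgeR FDR = 0.00146) and Scg2, which encodes a secretogranin (−2.52 ± 0.32, edgeR FDR = 3.44e-06), fell. Tfrc, the transferrin receptor (2.08 ± 0.36, edgeR FDR = 8e-05), the transcription factor gene Runx1 (1.99 ± 0.36, edgeR FDR = 0.000114) and Tgm2, a transglutaminase (1.78 ± 0.35, edgeR FDR = 0.000262), rose. Cd44, the receptor of hyaluronan, measured 26.4, 79.7 and 115 FPM in control and 154.8, 307 and 447 FPM in U46619 cultures, and its groups did not overlap.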
